A study of Danio rerio with 17 samples.

Results

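Langerhans cells (labelled cLCs, which stands for conventional Langerhans cells in the study's published terms) were compared with the keratinocytes of the same tissue, the adult zebrafish epidermis. The comparison set all 4 cLC libraries against all 3 keratinocyte libraries, 7 of the 17 libraries of the series, over every gene of the deposited tables. The cLCs came from fish carrying hsp70:mCherry-T2a-CreERT2 together with mpeg1:loxP-DsRedx-loxP-GFP, a reporter that marks cells using the promoter of the macrophage gene mpeg1 and that changes colour after Cre recombination. The keratinocytes came from fish carrying krt4:lyn-GFP, in which the promoter of the keratin gene krt4 drives a GFP. Both groups were adults, and a heat shock or an inducer, the age in months and the number of cells per library were not given in the sources used here. Fluorescent cells were picked by hand into lysis buffer and turned into cDNA by SMART-seq2, a full-length method for very small inputs. The series text describes the replicates of a cell type as coming from separate experiments. The transgenic line differed with the cell type, so the 2 cannot be told apart. Each library is a small bulk in which fewer cells of a type and less RNA per cell cannot be told apart either.

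Langerhans cells are the resident myeloid cells of the epidermis. They descend from blood-forming tissue, carry the pan-leukocyte phosphatase CD45 and the myeloid transcription factor PU.1, take up material at the body surface and present peptides on MHC class II. In mammals they hold on to keratinocytes through E-cadherin and depend on signals such as interleukin 34 and transforming growth factor beta from their surroundings. Keratinocytes are the epithelial cells that make the sheet itself, joined by desmosomes, adherens junctions and tight junctions, filled with keratin filaments and, at the surface, sealed by crosslinked proteins and very-long-chain lipids. Which genes separate the resident leukocyte from the epithelial cell beside it is the question this comparison addresses.

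The libraries held 6158350 to 19046921 counts in cLCs and 10557601 to 22118546 in keratinocytes. Genes with at least 1 count numbered 16200, 15203, 5662 and 4484 in cLC libraries 1 to 4, against 10382, 10683 and 8564 in keratinocyte libraries 1 to 3. Libraries 3 and 4 of the cLCs held far fewer genes than the other 5. Values below are CPM, counts scaled to a common library size after TMM, a normalisation to the bulk of the genes. They are given in the order of libraries 1 to 4 in cLCs and 1 to 3 in keratinocytes. The TMM factors ran from 0.486 in cLC library 2 to 1.50 in cLC library 4. Spearman correlations over the tested genes were 0.410 to 0.711 between cLC libraries, 0.625 to 0.719 between keratinocyte libraries and 0.246 to 0.362 between the groups. These points are genes that share a library, and no test is attached to them.

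The genes that define the sort followed the labels. The reporter gene mpeg1.1, a pore-forming macrophage protein, had 3009.8, 9898, 3027 and 4112 CPM in cLCs, against 0.359, 0 and 0 in keratinocytes. The keratin gene krt4, whose promoter marked the keratinocytes, had 24.6, 7.69, 0 and 0 CPM in cLCs, against 48691, 20006 and 9511 in keratinocytes. Both were used to pick the cells and are checks of the labels, not findings. The other marker genes set for the labels were the scavenger receptor marco, the complement gene c1qb and the lysosomal membrane gene laptm5 for cLCs and the claudin cldne for keratinocytes. All sat on the labelled side in every library, as the values below show. Genes of other leukocytes were uneven: lyz, the neutrophil lysozyme, and zap70 and il2rb, of T and natural killer cells, were at 0 in all 7 libraries. The T cell kinase lck had 19.8, 21.6, 0.472 and 0 CPM in cLCs against 0, 0 and 6.1 in keratinocytes, and summed over a neutrophil list the level was 57.6 to 1441 CPM in the cLC libraries and 1138 to 2112 CPM in the keratinocyte libraries, in keratinocytes largely from cfl1l. Of 19 tested genes of that neutrophil list, 1 was called higher in cLCs (ncf1) and 1 lower (cfl1l), with 10 higher and 2 lower at an unadjusted p under 0.05, and DESeq2 called 7 higher and 2 lower. Over all tested genes, edgeR called 2.02% higher and 1.35% lower, an unadjusted p under 0.05 marked 13.0% and 8.76%, and DESeq2 called 11.0% and 7.08%. mpx, the neutrophil peroxidase, had 2.72, 0, 0 and 0 CPM in cLCs against 0, 0 and 0 in keratinocytes. The T cell list is given below. Their part in the results was not tested. Of other epidermal cells, the mucous and club cell list summed to 57.6 to 439 CPM in the cLC libraries and 687 to 1482 CPM in the keratinocyte libraries, and the ionocyte list to 139.6 to 742 CPM in the cLC libraries and 361 to 5202 CPM in the keratinocyte libraries. Genes called for one group were also read in libraries of the other, unevenly. Of the 308 genes called higher in cLCs, 146, 25 and 27 had at least 1 count in keratinocyte libraries 1 to 3. Of the 206 called lower, 51, 75, 13 and 11 had at least 1 count in cLC libraries 1 to 4. Whether these counts came from the cells themselves or were carried over from the other group was not tested.

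**Figure D1:**
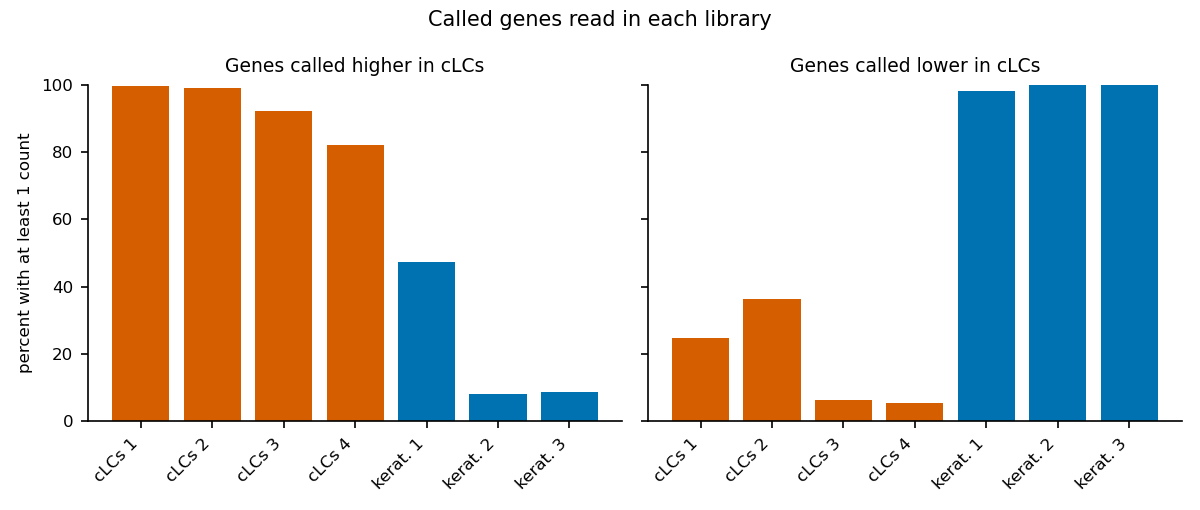
Percent of the genes called higher in cLCs (left panel) and called lower in cLCs (right panel) that had at least 1 count, by library, with the 4 cLC libraries in orange and the 3 keratinocyte libraries in blue. Of the genes called higher, each cLC library held counts for 82.1% to 99.7% and keratinocyte library 1 for 47.4%. Of the genes called lower, cLC library 2 held counts for 36.4% and cLC library 4 for 5.34%.

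Leukocyte genes marked the cLCs and epithelial genes the keratinocytes, and many of the calls were of reads against none. The called complement genes of the list below were read in cLCs with next to nothing in keratinocytes. So were the called chemokine receptor and PU.1 genes and most called leukocyte actin regulators. The complement gene cfd, outside the list, ran the other way. Most claudin, keratin and desmosome genes that were called ran the other way. The actin gene actb2 itself was high in both cells, as given below. The keratin list as a whole was read in both cells, since krt8 and krt18b, described below, were high in cLCs. Of 15247 tested genes among 35117, 308 were called higher in cLCs and 206 lower (edgeR's quasi-likelihood test with Benjamini-Hochberg adjusted p under 0.05), which is 2.02% and 1.35% of the tested genes, or 3.37% in either direction. The genes called higher took 11.6%, 18.2%, 13.5% and 11.0% of all TPM in the cLC libraries, against 0.234%, 0.289% and 0.453% in the keratinocyte libraries. The genes called lower took 0.155%, 0.0925%, 0.0893% and 0.139% of TPM in the cLC libraries, against 26.9%, 19.6% and 14.5% in the keratinocyte libraries. Of the genes called higher, 155 had no count in any keratinocyte library. Of those called lower, 104 had no count in any cLC library. Of all 15247 tested genes, 10295 had over 3 counts in each group, and these held 128 of the 514 calls. Genes read in only 1 group were thus called more often, and the counts of 155 and 104 partly follow from that. In 228 of the 308 and in 202 of the 206 every library of the higher group lay above every library of the other, beside 4.77% of all tested genes with all cLC libraries above and 11.0% with all below.

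The spread between libraries set how much could be called. The biological coefficient of variation was 2.03, the smallest called difference was 2.72 on the log2 scale, and of all tested genes 0 had a 95% interval inside a 2-fold change either way. A gene that missed the threshold is therefore not shown to be equal in both cells. The counts moved with single libraries: 203 higher and 99 lower without cLC library 1, 189 and 131 without cLC library 2, and 291 and 111 without cLC library 3. They were 129 and 97 without keratinocyte library 1, 115 and 83 without keratinocyte library 2, and 124 and 108 without keratinocyte library 3. The share of higher calls among all calls was 59.9%, against 36.0% on log2(TPM + 1) with limma, where 742 were higher and 1318 lower. The median log2 fold change over all tested genes was 0.26, or 0.16 with genes at 0 in one group set to the bound described next. Medians of gene groups below are to be read beside it. With the scaling of DESeq2 in the same fit it was 0.

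Where every library of a group was at 0, the fold is given as a bound against a floor of 3 counts over that group's libraries (0.0548 CPM in cLCs and 0.0808 CPM in keratinocytes). Where the lower group held 1 to 3 counts no fold is given. The bounds also rest on single libraries: without the highest library of the group that held the reads, the bound was lower by over 1.5 times in 83 of 155 genes higher in cLCs and 44 of 104 lower. For c1ql1 it was then 14971-fold and for krt1-19d 14700-fold. The floors cover counting error only, because the cDNA was amplified and several reads can come from 1 starting molecule.

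**Figure D2:**
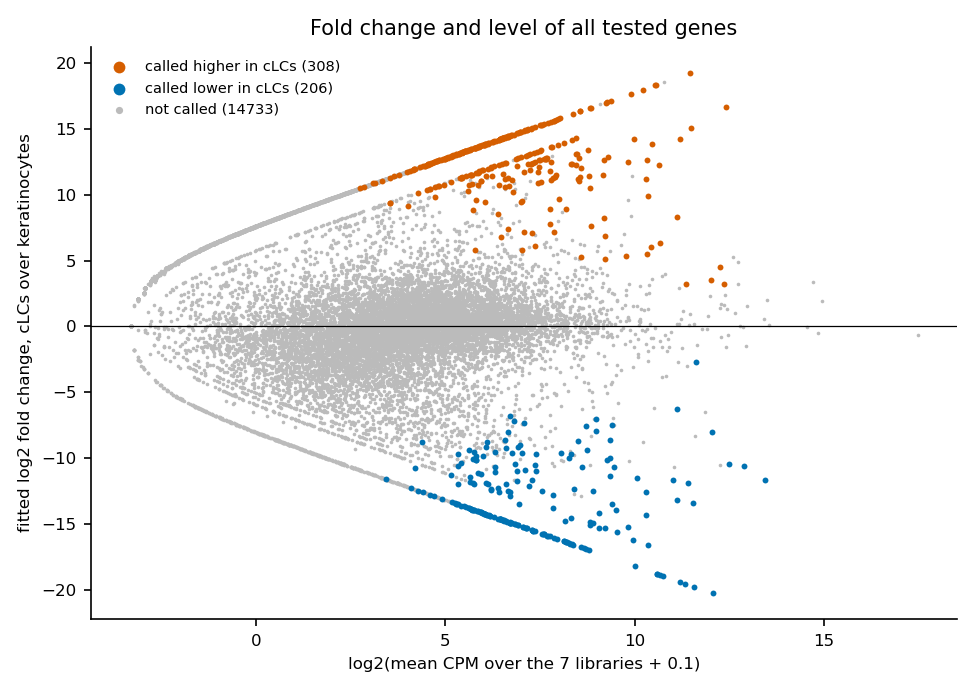
Fitted log2 fold change of cLCs over keratinocytes against the log2 mean CPM over the 7 libraries plus 0.1, one point per tested gene, with genes called higher in cLCs in orange, called lower in blue and not called in grey. The 308 and 206 called genes lie mostly toward the outer edges, and both curved edges hold genes at 0 in one group, whose fitted values depend on the prior count.

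Genes of complement C1q and a scavenger receptor were among those with the largest fitted changes toward cLCs. Their adjusted p-values were not the smallest, as odc1, given below, had an edgeR adjusted p = 7.65e-05. The gene c1ql1, deposited under that C1q-like name, had 2126, 16252, 708 and 793 CPM in cLCs, against 0 in all 3 keratinocyte libraries; it was at least 61537-fold higher (edgeR adjusted p = 0.00856). The 3 genes of C1q, the recognition protein that tags dying cells and microbes for uptake, followed the same pattern. c1qa had 513, 1334, 578 and 211 CPM in cLCs, against 0 in all 3 keratinocyte libraries, at least 8159-fold higher (edgeR adjusted p = 0.00468). c1qb had 1409, 6877, 1066 and 1087 CPM in cLCs, against 0 in all 3 keratinocyte libraries, at least 32314-fold higher (edgeR adjusted p = 0.0157). c1qc had 1197, 5922, 1056 and 163 CPM in cLCs, against 0 in all 3 keratinocyte libraries, at least 25809-fold higher (edgeR adjusted p = 0.00439). Library 2 was the highest of the cLC libraries for all 4 of these genes, and no cLC library overlapped a keratinocyte library. Absence of overlap was a condition for the set of largest changes, to which these genes belong. marco, which binds bacteria and particles at the surface of macrophages, had 1276, 7248, 1637 and 376 CPM in cLCs, against 0 in all 3 keratinocyte libraries, at least 32616-fold higher (edgeR adjusted p = 0.0188). The call of marco was lost without cLC library 2 or keratinocyte library 3 and that of c1qb without keratinocyte library 3. These 5 were all the calls among 21 tested genes of a list of complement and of the clearance of dead cells. The median log2 fold change of the list was 9.88 (8.23 with bounds). It does not hold every complement gene, and cfd and cfbl, outside it, were chosen after their values were seen. cfd, at 0 in all cLC libraries, was called lower, at least 12443-fold (371-fold without keratinocyte library 3). cfbl, at 0 in all keratinocyte libraries, was called higher, at least 2741-fold (1214-fold without cLC library 2).

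**Figure D3:**
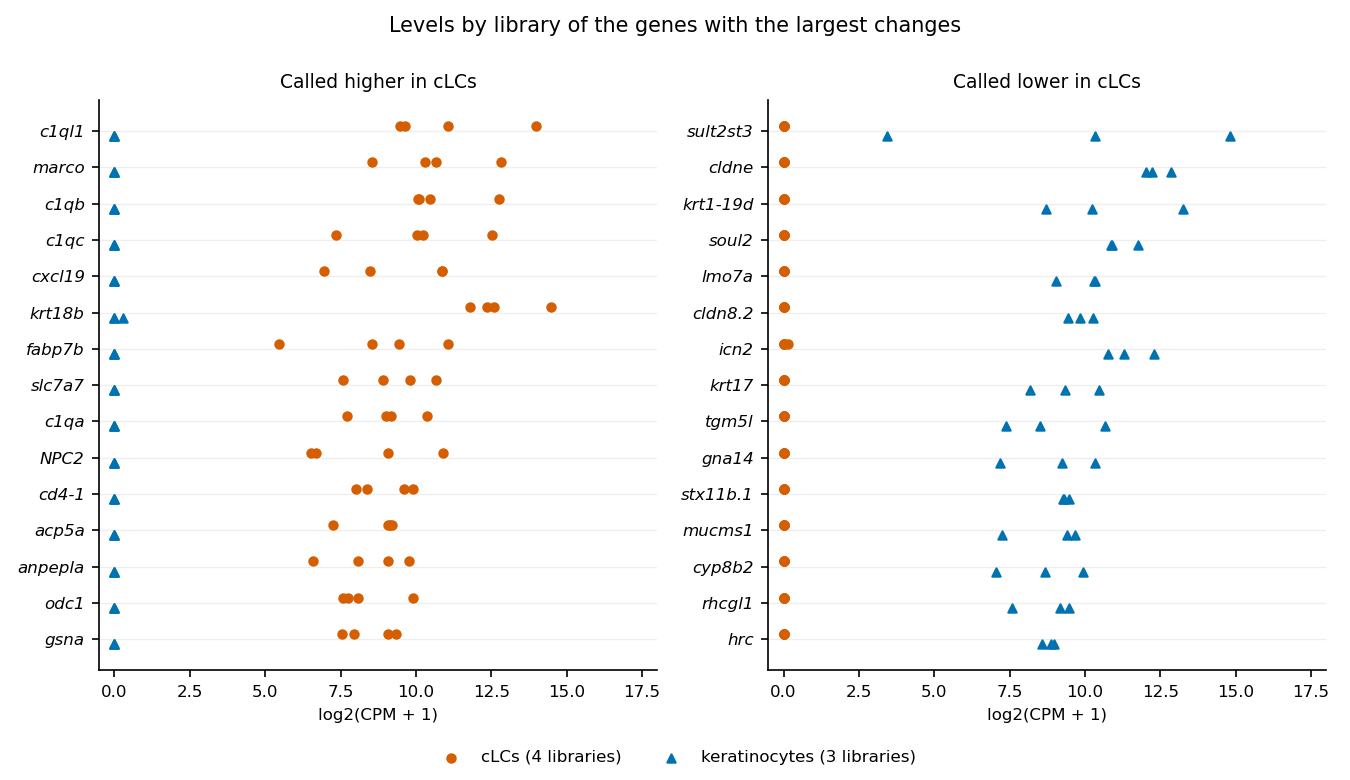
Levels as log2(CPM + 1) in the 4 cLC libraries (orange circles) and the 3 keratinocyte libraries (blue triangles) of the 15 genes called higher in cLCs (left panel) and the 15 called lower (right panel) with the largest fitted changes. Only genes whose groups did not overlap were eligible. In the left panel every keratinocyte library is at or near 0, krt18b with 0.205 CPM in keratinocyte library 1 being the exception. In the right panel every cLC library is at or near 0, icn2 with 0.108 CPM in cLC library 2 being the exception.

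Genes of a wider myeloid list were mostly called higher in cLCs. Like the other lists, it was chosen with earlier results of these data known. Of its 29 tested genes, 20 were called higher in cLCs and 0 lower, beside 2.02% and 1.35% of all tested genes. The median log2 fold change was 11.29 (11.21 with bounds). Of those calls, 14 held whichever single library was left out. The calls include the reporter gene mpeg1.1, which is a check of the labels. Among them, ptprc, which encodes CD45, had 827, 568, 271 and 293 CPM in cLCs, against 0.0513, 0 and 0 in keratinocytes (edgeR adjusted p = 0.000494). The actin bundler lcp1, L-plastin, had 749, 5418, 1887 and 914 CPM in cLCs, against 0.975, 0 and 0 in keratinocytes, a log2 fold change of 12.62 ± 1.73 (SE), edgeR adjusted p = 0.000208. laptm5, a lysosomal protein of blood cells, had 594, 1052, 317 and 629 CPM in cLCs, against 0.205, 0 and 0 in keratinocytes, a log2 fold change of 12.82 ± 1.58 (SE), edgeR adjusted p = 8.09e-05. In all 3 genes the keratinocyte signal came from library 1 alone and lay below 1 CPM. fcer1g, the shared gamma chain of Fc receptors, had 237, 349.8, 88.6 and 318 CPM in cLCs, against 0 in all 3 keratinocyte libraries, at least 3074-fold higher (edgeR adjusted p = 0.00219). slc7a7, an amino acid transporter that microglia require in zebrafish, had 889.9, 1609, 483 and 192 CPM in cLCs, against 0 in all 3 keratinocyte libraries, at least 9826-fold higher (edgeR adjusted p = 0.000284). The macrophage gene mfap4 had 952, 6990, 633 and 228 CPM in cLCs, against 0.205, 2.62 and 0 in keratinocytes, a log2 fold change of 11.21 ± 2.92 (SE), edgeR adjusted p = 0.0366, a call lost without cLC library 1 or 2 or keratinocyte library 1 or 3. csf1ra, the receptor for CSF1 and interleukin 34, was read in every cLC library and in no keratinocyte library and still missed the threshold, with 157, 143, 112 and 27.7 CPM in cLCs, against 0 in all 3 keratinocyte libraries (edgeR adjusted p = 0.0525).

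Regulators of actin in migrating leukocytes were also mostly called higher in cLCs. Both this list and the myeloid list hold lcp1, rac2, coro1a and arpc1b, so their counts overlap. Of 20 tested regulators, 16 were called higher in cLCs and 0 lower, with a median log2 fold change of 11.53 (10.78 with bounds). Of the calls, 12 held without any one library. Summed over the list, the level was 4865 to 17415 CPM in the cLC libraries and 346 to 670 CPM in the keratinocyte libraries. rac2, the blood-cell Rac GTPase, had 459, 964, 457 and 408 CPM in cLCs, against 0.0513, 0 and 0 in keratinocytes (edgeR adjusted p = 2.85e-05). coro1a, coronin 1A, had 483, 1499.8, 604 and 64.3 CPM in cLCs, against 0.667, 0 and 0 in keratinocytes, a log2 fold change of 11.37 ± 1.74 (SE), edgeR adjusted p = 0.00065. The spread within cLCs was wide for coro1a, of which cLC library 4 held far less than the other 3, and narrower for rac2. No cLC library overlapped a keratinocyte library for either gene. arpc1b, an Arp2/3 subunit, had 1178, 4941, 1543 and 1519 CPM in cLCs, against 1.13, 0 and 6 in keratinocytes, a log2 fold change of 9.91 ± 1.51 (SE), edgeR adjusted p = 0.000635. fybb, an adaptor that links immune receptors to actin, had 183, 357, 382 and 377 CPM in cLCs, against 0 in all 3 keratinocyte libraries, at least 4023-fold higher (edgeR adjusted p = 7.65e-05). gsna, a gelsolin that severs filaments, had 542, 646, 187 and 248 CPM in cLCs, against 0 in all 3 keratinocyte libraries, at least 5024-fold higher (edgeR adjusted p = 0.00782). Neither fybb nor gsna had a count in keratinocytes. The formin fmnl1a, the myosin myo1f and the RhoGAP arhgap15 were also called, but cLC library 4 held 0.329, 0 and 0 CPM of them. The call of myo1f was lost without keratinocyte library 1, 2 or 3 and that of arhgap15 without cLC library 1, 2 or 3 or keratinocyte library 1, 2 or 3.

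Of 27 tested transcription factors of myeloid cells, 5 were called higher and 1 lower, with a median log2 fold change of 1.64 (1.64 with bounds). spi1a and spi1b, the zebrafish PU.1 genes, were both among them and are also counted in the myeloid list above. spi1a had 256, 961, 1006 and 459 CPM in cLCs, against 0.41, 0 and 0 in keratinocytes, a log2 fold change of 12.01 ± 2.36 (SE), edgeR adjusted p = 0.00567. spi1b had 464, 987, 430.4 and 573 CPM in cLCs, against 0.308, 0 and 0 in keratinocytes, a log2 fold change of 12.25 ± 3.33 (SE), edgeR adjusted p = 0.0418. The spi1a call held without any one library, whereas those of spi1b, irf8 and tfec were lost without any one of the 7 libraries. irf8, which directs macrophage fate in zebrafish, had 78, 100.2, 123 and 296 CPM in cLCs, against 0.205, 0 and 0 in keratinocytes, a log2 fold change of 10.78 ± 2.96 (SE), edgeR adjusted p = 0.0474. tfec, of the MiT family, had 57, 68.2, 128 and 146 CPM in cLCs, against 0 in all 3 keratinocyte libraries, at least 1238-fold higher (edgeR adjusted p = 0.0336), and ikzf1, Ikaros, had 21, 39.5, 60.1 and 48.2 CPM in cLCs, against 0.0513, 0 and 0 in keratinocytes (edgeR adjusted p = 0.0189; lost without keratinocyte library 1, 2 or 3). cebpd ran the other way with 0, 0.108, 0 and 0 CPM in cLCs, against 59, 123 and 187 in keratinocytes (edgeR adjusted p = 0.0415), although this call too was lost without any one of the 7 libraries. Factors common to both cells missed the threshold: cebpb had 4996, 18243, 5324 and 1058 CPM in cLCs against 1797, 1518 and 3821 in keratinocytes (edgeR adjusted p = 0.541), and runx3, which mouse Langerhans cells require, had 257, 484, 968 and 583 CPM in cLCs against 233, 117 and 39.8 in keratinocytes (edgeR adjusted p = 0.455).

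Chemokine receptors were prominent. Of 29 tested chemokines and receptors of a list, 7 were called higher in cLCs and 0 lower, and the median log2 fold change was 8.30 (7.05 with bounds). The list does not hold every chemokine, and 2 outside it are given here, chosen after their values were seen. ccl20b, at 0 in all cLC libraries, was called lower, at least 2583.5-fold (2178-fold without keratinocyte library 2). ccl35.2, at 0 in all keratinocyte libraries, was called higher, at least 1991-fold (56.6-fold without cLC library 1). cxcr4b, a receptor for Cxcl12, had 2054, 10533, 1109 and 2604 CPM in cLCs, against 0.564, 0 and 0 in keratinocytes, a log2 fold change of 14.20 ± 1.78 (SE), edgeR adjusted p = 9.26e-05. ccr9a, the receptor of a chemokine that guides lymphocytes to thymus and mucosa in mammals, had 2620.1, 2074, 1176 and 1207 CPM in cLCs, against 0.205, 0 and 0 in keratinocytes, a log2 fold change of 14.26 ± 1.86 (SE), edgeR adjusted p = 0.000123. Both calls held without any one library, and for both the keratinocyte reads were confined to library 1. The ligand cxcl19 had 1852, 1872, 357 and 122 CPM in cLCs, against 0 in all 3 keratinocyte libraries, at least 13013-fold higher (edgeR adjusted p = 0.0343). ccl34a.4 had 472, 3775, 133 and 0 CPM in cLCs, against 0.359, 0 and 0 in keratinocytes, a log2 fold change of 12.90 ± 3.43 (SE), edgeR adjusted p = 0.0403. ccl35.1 had 2921, 545, 224 and 347 CPM in cLCs, against 0.975, 0 and 0 in keratinocytes, a log2 fold change of 11.47 ± 2.71 (SE), edgeR adjusted p = 0.0219. ccl34a.4 had no count in cLC library 4. The calls of cxcl19 and ccl34a.4 were lost without cLC library 1 or 2 or keratinocyte library 1, 2 or 3, and that of ccl35.1 without cLC library 1 or keratinocyte library 2 or 3. cxcr4a had 193, 271, 99.2 and 0 CPM in cLCs, against 0 in all 3 keratinocyte libraries (edgeR adjusted p = 0.0403). xcr1a.1, named after a receptor of cross-presenting dendritic cells in mammals, had 4.85, 37.4, 7.44 and 0 CPM in cLCs, against 0 in all 3 keratinocyte libraries (edgeR adjusted p = 0.0355). Each was at 0 in cLC library 4. The call of cxcr4a was lost without cLC library 1, 2 or 3 or keratinocyte library 1, 2 or 3 and that of xcr1a.1 without cLC library 1 or 2 or keratinocyte library 1, 2 or 3.

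Of 35 tested cytokines and cytokine receptors, 6 were called higher and 1 lower, with a median log2 fold change of 6.99 (4.36 with bounds). The inflammatory cytokine tnfb had 518, 516, 168 and 1078 CPM in cLCs, against 0.257, 0 and 0 in keratinocytes, a log2 fold change of 12.37 ± 1.92 (SE), edgeR adjusted p = 0.000695, and its call held without any one library. il1b, interleukin 1 beta, had 721, 234, 174 and 123 CPM in cLCs, against 0.154, 0 and 0 in keratinocytes (edgeR adjusted p = 0.011; lost without keratinocyte library 2 or 3). Both were read in all 4 cLC libraries, and the keratinocyte reads were again limited to library 1. ifngr2, a subunit of an interferon gamma receptor, had 72.4, 253, 279.9 and 61.9 CPM in cLCs, against 0 in all 3 keratinocyte libraries, at least 2064-fold higher (edgeR adjusted p = 0.00067). il10ra, the interleukin 10 receptor chain, had 367, 498, 251 and 489 CPM in cLCs, against 0.41, 0 and 0 in keratinocytes, a log2 fold change of 11.29 ± 2.44 (SE), edgeR adjusted p = 0.011 (lost without keratinocyte library 2 or 3). The lower gene was il17ra1a, an interleukin 17 receptor, with 0, 0.433, 0 and 0 CPM in cLCs, against 30.3, 87 and 28.2 in keratinocytes, a log2 fold change of -8.75 ± 2.29 (SE), edgeR adjusted p = 0.038. That call was lost without cLC library 1, 3 or 4 or keratinocyte library 1, 2 or 3. Among 27 tested innate sensors of a list, tlr8b and tlr21, Toll-like receptors for nucleic acids, were called higher and none lower. The list does not hold every sensor. The Toll-like receptor gene tlr4bb, outside it and chosen after its values were seen, was also called higher, at least 899.8-fold. tlr8b had 815, 325, 1057 and 45.2 CPM in cLCs, against 0.257, 0 and 0 in keratinocytes, a log2 fold change of 12.35 ± 2.27 (SE), edgeR adjusted p = 0.00418, and tlr21 had 58.6, 79.3, 304 and 20 CPM in cLCs, against 0 in all 3 keratinocyte libraries, at least 1431-fold higher (edgeR adjusted p = 0.015; lost without keratinocyte library 1, 2 or 3).

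Lysosomal genes were read in both cells, at higher levels in cLCs for a few. Of 37 tested, 5 were called higher and 0 lower, and the median log2 fold change was 2.58 (2.58 with bounds). psap, the saposin precursor for lipid breakdown, had 2293, 19434, 6427 and 5166 CPM in cLCs, against 531, 174 and 389 in keratinocytes, a log2 fold change of 4.51 ± 0.94 (SE), edgeR adjusted p = 0.009. ctsd, cathepsin D, had 2403, 6175, 2500.1 and 243 CPM in cLCs, against 12.6, 28.5 and 64.3 in keratinocytes, a log2 fold change of 6.33 ± 1.32 (SE), edgeR adjusted p = 0.00895. Here the keratinocyte level was well above 0 and the groups did not overlap, so the differences are sizes and not presence. The psap call was lost without keratinocyte library 2 and the ctsd call without keratinocyte library 1 or 2. The granulins grn1 and grn2 and the lysosome regulator tfeb were also called, yet grn2 was read in cLC libraries 1 and 2 alone, with 20, 199.6, 0 and 0 CPM in cLCs, against 0 in all 3 keratinocyte libraries. The calls of grn1 and grn2 were lost without cLC library 1 or 2 or keratinocyte library 1, 2 or 3 and that of tfeb without cLC library 1, 2 or 3 or keratinocyte library 1, 2 or 3. Cathepsin B, ctsba, did not reach the threshold with 2366, 3865, 2324 and 767 CPM in cLCs against 86.4, 142 and 332 in keratinocytes (edgeR adjusted p = 0.0569).

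Antigen presentation on MHC class II, a defining function of Langerhans cells, gave 1 call, and more under some other settings. Of 17 tested genes 1 was called, cd83, a surface protein that steadies class II molecules on dendritic cells, and the median log2 fold change of the group was 2.92 (2.49 with bounds). By limma on log2(TPM + 1) 6 of the 17 were called higher, and by DESeq2, without a filter on low counts or without the libraries under 6000 genes 5 each, with 0 lower in each. Of all genes tested in those fits, limma called 5.09% higher and 9.04% lower, DESeq2 11.0% and 7.08%, the fit without the filter 2.22% and 1.52%, and that without those libraries 4.13% and 0.968%. Other settings gave fewer class II calls. With the scaling of DESeq2 in the main fit, the 7 libraries alone or a fold above 2 the count was 1. With a minimum of 10 CPM in 3 libraries it was 2, and with any single library left out 1 or 2. cd83 had 1885, 6696, 915 and 342 CPM in cLCs, against 0.41, 0 and 0 in keratinocytes, a log2 fold change of 13.88 ± 2.81 (SE), edgeR adjusted p = 0.00705, and the call held without any one library. The invariant chain cd74a had 33097, 91935, 18418 and 32667 CPM in cLCs, against 4197, 4230.2 and 4464 in keratinocytes, a log2 fold change of 3.36 with a 95% interval of 0.40 to 6.31, edgeR adjusted p = 0.181. All 4 cLC libraries lay above the 3 keratinocyte libraries, whose SD was 146 CPM. The log2 fold change of cd74a passed the threshold without a filter on low counts (edgeR adjusted p = 8.54e-05), without the libraries under 6000 genes (edgeR adjusted p = 0.000598) and by limma on log2(TPM + 1) (adjusted p = 0.0145). It did not pass by DESeq2 (adjusted p = 0.184) or with any single library left out (edgeR adjusted p = 0.202 to 0.335). cd74b had 5131, 45629, 5256 and 12237 CPM in cLCs, against 4708, 3549 and 4168 in keratinocytes, a log2 fold change of 2.04 with a 95% interval of -0.41 to 4.49, edgeR adjusted p = 0.316. Both chains were thus well above the floor in keratinocytes. ifi30, the thiol reductase of the presentation pathway, had 1936, 9504, 1141 and 2233 CPM in cLCs, against 266, 466 and 731 in keratinocytes (edgeR adjusted p = 0.0598), and lgmn, legumain, had 3595, 39078, 2961 and 611 CPM in cLCs, against 166, 472 and 505 in keratinocytes (edgeR adjusted p = 0.158). All cLC libraries lay above all keratinocyte libraries for ifi30 and lgmn too. The class II chains themselves were uneven among libraries, in genes picked after their values were seen: mhc2dab had 18.4, 0.975, 2316 and 4432 CPM in cLCs, against 0.616, 0 and 1.2 in keratinocytes. One of the genes named mhc2b had 4149, 37645, 2418 and 0 CPM in cLCs, against 3143, 4664 and 3577 in keratinocytes. Near-identical copies of class II genes can share or lose reads in counting, so these levels are uncertain.

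**Figure D4:**
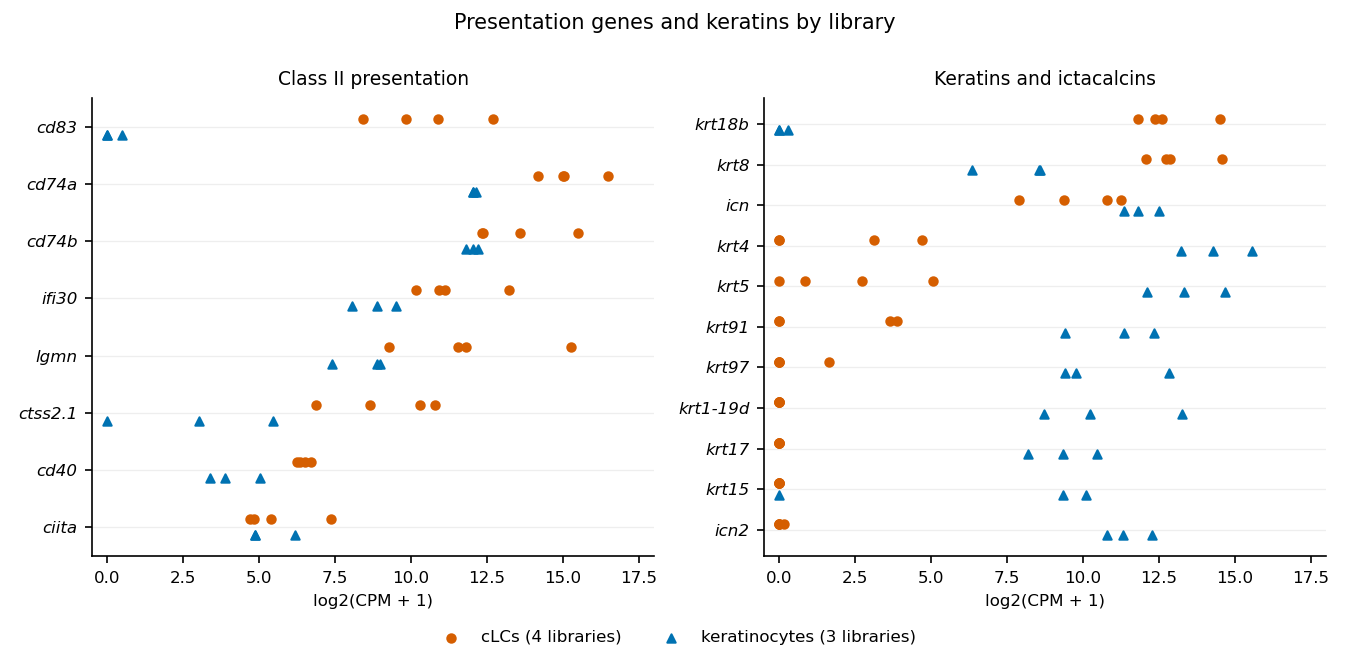
Levels as log2(CPM + 1) in the 4 cLC libraries (orange circles) and the 3 keratinocyte libraries (blue triangles) of class II presentation genes (left panel) and of keratins and ictacalcins (right panel). cd83 stands apart with keratinocyte libraries at 0 to 0.41 CPM, while cd74a and cd74b were read at high levels in every library of both groups. On the right krt18b and krt8 lie above keratinocytes in every cLC library and the other genes below, except krt15, at 0 in keratinocyte library 1 as in cLCs.

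The lineage lists of dendritic and T cells were mixed. Of 20 tested genes of Langerhans and dendritic cells, 4 were called higher, xcr1a.1, cd83, irf8 and nrros, and 1 lower, cdh1. nrros, which holds latent transforming growth factor beta on myeloid cells in mammals, had 125, 103, 71.2 and 68.5 CPM in cLCs, against 0.513, 0 and 0 in keratinocytes, a log2 fold change of 8.88 ± 2.24 (SE), edgeR adjusted p = 0.0336 (lost without cLC library 1 or 2 or keratinocyte library 2 or 3). flt3, the dendritic cell growth factor receptor of mammals, had 4.46, 40, 0 and 4.79 CPM in cLCs against 0, 0 and 0 in keratinocytes (edgeR adjusted p = 0.183). Of 23 tested T cell genes, 4 were called higher and 1 lower, and DESeq2 called 7 and 2. The coreceptor cd4-1 had 333, 964, 773 and 258 CPM in cLCs, against 0 in all 3 keratinocyte libraries, at least 7206-fold higher (edgeR adjusted p = 0.00121). cd8a had 309, 1359, 283 and 89.4 CPM in cLCs, against 3.03, 0 and 0 in keratinocytes, a log2 fold change of 8.94 ± 2.31 (SE), edgeR adjusted p = 0.0354 (lost without cLC library 1 or 2 or keratinocyte library 2 or 3), and cd8b had 50.6, 99.3, 25 and 0 CPM in cLCs, against 0 in all 3 keratinocyte libraries (edgeR adjusted p = 0.0392; lost without cLC library 1 or 2 or keratinocyte library 1, 2 or 3). Of the T cell kinases in the list, zap70 and txk were at 0 in all 7 libraries, and lck was read in cLC libraries 1 to 3 at the low levels given above. Summed over the whole T cell list, the level was 2289.6 to 5283 CPM in the cLC libraries and 165 to 338 CPM in the keratinocyte libraries, of which ccr9a and runx3 are not specific to T cells. The lower gene, bcl11ba, had 0 CPM in all 4 cLC libraries, against 91.7, 29.7 and 57.9 in keratinocytes, at least 1090.3-fold lower (edgeR adjusted p = 0.00896).

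Turning to the keratinocyte side, 16 genes of a keratin list were tested, and 7 were called lower in cLCs and 1 higher, with a median log2 fold change of -10.86 (-10.86 with bounds). The lower calls include krt4, whose promoter marked the keratinocytes and which is a check of the labels. krt17 had 0 CPM in all 4 cLC libraries, against 287, 642 and 1399.5 in keratinocytes, at least 14160-fold lower (edgeR adjusted p = 0.00241). krt1-19d had 0 CPM in all 4 cLC libraries, against 9856, 1192 and 419 in keratinocytes, at least 69743-fold lower (edgeR adjusted p = 0.00478). The keratinocyte libraries differed widely among themselves for krt1-19d, and even the lowest lay far above every cLC library. krt5, a basal-layer keratin in mammals, had 32, 5.63, 0 and 0.799 CPM in cLCs, against 26037, 10226 and 4374 in keratinocytes, a log2 fold change of -10.47 ± 2.68 (SE), edgeR adjusted p = 0.0314. icn2, an ictacalcin of the S100 family that the list also held, had 0, 0.108, 0 and 0 CPM in cLCs, against 4954, 1743 and 2529 in keratinocytes (edgeR adjusted p = 0.00556). krt15 and krt97 were called as well, but krt15 was at 0 in keratinocyte library 1. The krt5 call was lost without cLC library 2, 3 or 4, that of krt97 without cLC library 2, 3 or 4 or keratinocyte library 1 and that of krt15 without cLC library 1, 2 or 3 or keratinocyte library 2.

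A pair of keratins ran the other way. krt18b had 5309, 22990, 3539.5 and 6228 CPM in cLCs, against 0.205, 0 and 0 in keratinocytes, a log2 fold change of 16.69 ± 3.02 (SE), edgeR adjusted p = 0.00304, a call that held without any one library. krt8, whose mammalian product pairs with such a type I keratin in simple epithelia, had 6809, 24142, 7397 and 4261 CPM in cLCs, against 79.1, 379 and 376 in keratinocytes, a log2 fold change of 5.26 with a 95% interval of 1.25 to 9.27, edgeR adjusted p = 0.129. Every cLC library lay above every keratinocyte library for both genes, and keratinocytes held krt8 but next to no krt18b. For krt18b that was a condition of its place among the largest changes. In the other cell types of the series, krt18b averaged 1602 CPM in the cells labelled MLCs, 127 CPM in neutrophils and 33.3 CPM in T cells, values given side by side without a test.

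Junction genes marked the epithelial sheet. Of 30 tested claudins and tight junction genes, 6 were called lower and 0 higher, with a median log2 fold change of -7.08 (-7.08 with bounds). cldne had 0 CPM in all 4 cLC libraries, against 4728, 4201 and 7362 in keratinocytes, at least 99081-fold lower (edgeR adjusted p = 0.00556). cldn23a had 0.582, 0.108, 0 and 0 CPM in cLCs, against 2504, 2104 and 4186 in keratinocytes, a log2 fold change of -14.31 ± 2.88 (SE), edgeR adjusted p = 0.00921. cldnb had 16.9, 27.5, 0 and 0 CPM in cLCs, against 18206, 11853 and 22540 in keratinocytes, a log2 fold change of -10.63 ± 2.53 (SE), edgeR adjusted p = 0.0207 (lost without cLC library 1 or 2). oclnb, an occludin, had 3.88, 2.06, 0 and 0 CPM in cLCs, against 1211, 835 and 919.9 in keratinocytes, a log2 fold change of -9.41 ± 1.92 (SE), edgeR adjusted p = 0.00895. For cldn23a, cldnb and oclnb the reads of cLCs sat in libraries 1 and 2, and for all 4 genes the groups did not overlap. For cldne the absence of overlap was a condition of its place among the largest changes. cldnf, at 0 in every cLC library, and ildr1a, a tricellular junction gene whose call was lost without cLC library 1 or 3 or keratinocyte library 1, 2 or 3, were the remaining calls. A further claudin outside the list, cldn8.2, had 0 CPM in all 4 cLC libraries, against 687, 903 and 1225 in keratinocytes, at least 17121-fold lower (edgeR adjusted p = 0.00463).

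Desmosomes and adherens junctions followed. Of 13 tested desmosome genes, 5 were called lower and 0 higher, with a median log2 fold change of -6.99 (-6.99 with bounds). pkp3a, a plakophilin, had 2.52, 1.62, 0 and 0 CPM in cLCs, against 3164, 884 and 808 in keratinocytes, a log2 fold change of -10.64 ± 1.98 (SE), edgeR adjusted p = 0.00456. evpla, an envoplakin, had 5.63, 0.65, 0 and 0 CPM in cLCs, against 2117, 1284 and 1153 in keratinocytes, a log2 fold change of -9.96 ± 2.18 (SE), edgeR adjusted p = 0.0159 (lost without cLC library 2). The desmosomal cadherin dsg2.1 had 16.1, 3.25, 0 and 0 CPM in cLCs, against 1673, 1029.6 and 789 in keratinocytes, a log2 fold change of -7.92 ± 1.97 (SE), edgeR adjusted p = 0.0325 (lost without cLC library 2 or keratinocyte library 1, 2 or 3). Plakoglobin, jupa, was read in every library, with 55.5, 270.5, 98.1 and 55.8 CPM in cLCs against 2845, 680.2 and 1121 in keratinocytes (edgeR adjusted p = 0.226). Of 16 tested adherens junction genes, 3 were called lower and 0 higher, beside 1.35% and 2.02% of all tested genes. Their median log2 fold change was -2.08 (-2.08 with bounds), nearer 0 than that of the desmosome genes. Of the 16, 5 had a fitted value above 0 and 11 below. cdh1, E-cadherin, had 4.85, 26.3, 4.4 and 0.329 CPM in cLCs, against 1243, 1001 and 1234 in keratinocytes, a log2 fold change of -7.01 ± 1.44 (SE), edgeR adjusted p = 0.00921, and the call held without any one library. lmo7a, an actin-linked junction protein, had 0 CPM in all 4 cLC libraries, against 1294, 528 and 1259 in keratinocytes, at least 18740-fold lower (edgeR adjusted p = 0.00921), and nectin4a had 0 CPM in all 4 cLC libraries, against 158, 159.6 and 135 in keratinocytes, at least 2753-fold lower (edgeR adjusted p = 0.0239; lost without cLC library 1 or 2 or keratinocyte library 1, 2 or 3). epcam, an epithelial adhesion molecule also present on mammalian Langerhans cells, had 2.72, 88.3, 0 and 0 CPM in cLCs, against 11630, 3123 and 6728 in keratinocytes (edgeR adjusted p = 0.052) and missed the threshold. Of 26 hemidesmosome and basement membrane genes 7 had enough counts to test, and 0 were called by edgeR in either direction, with 1 higher and 0 lower at an unadjusted p under 0.05 and likewise by DESeq2. So few genes cannot be told from the 2.02% higher and 1.35% lower called by edgeR over all tested genes.

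Barrier genes of the surface that were called were mostly lower. Among 22 tested, 6 were lower and 1 higher, with a median log2 fold change of -7.93 (-7.93 with bounds). agr1, an anterior gradient protein, had 0, 0.758, 0 and 0 CPM in cLCs, against 2424, 504 and 425 in keratinocytes, a log2 fold change of -12.52 ± 2.15 (SE), edgeR adjusted p = 0.00304, and the call held without any one library. tgm5l, a transglutaminase of the family that crosslinks the cornified envelope in mammals, had 0 CPM in all 4 cLC libraries, against 1632, 165 and 360 in keratinocytes, at least 13117-fold lower (edgeR adjusted p = 0.0141; lost without keratinocyte library 1). tgm1 had 0, 0.108, 0 and 0 CPM in cLCs, against 294, 134 and 88.9 in keratinocytes (edgeR adjusted p = 0.0239; lost without cLC library 1 or 2 or keratinocyte library 1, 2 or 3). The called fatty acid elongases of this list split. elovl7b had 0, 2.27, 0 and 0 CPM in cLCs, against 756, 552 and 1436 in keratinocytes, a log2 fold change of -10.64 ± 2.81 (SE), edgeR adjusted p = 0.0396, while elovl1b, an elongase of very-long-chain saturated fatty acids, had 551, 1264, 655 and 181 CPM in cLCs, against 2.15, 4.71 and 43.7 in keratinocytes, a log2 fold change of 5.30 ± 1.28 (SE), edgeR adjusted p = 0.0227. Neither call was firm, as elovl7b lost it without cLC library 1, 3 or 4 or keratinocyte library 1, 2 or 3 and elovl1b without keratinocyte library 1 or 2. A further elongase outside the list, elovl5, was chosen after its values were seen. It was at 0 in all keratinocyte libraries and was called higher, at least 3089-fold (2388-fold without cLC library 3).

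Of 24 tested epidermal transcription and splicing regulators, 4 were called lower and 0 higher, and none of the 24 had a fitted log2 fold change above 0. The median was -7.58 (-6.53 with bounds). elf3, an epithelial ETS factor, had 0, 5.09, 0 and 0 CPM in cLCs, against 1299.5, 1166 and 1836 in keratinocytes, a log2 fold change of -10.13 ± 2.19 (SE), edgeR adjusted p = 0.0146, and held without any one library. esrp1, which directs epithelial splicing, had 1.55, 0.758, 0 and 0 CPM in cLCs, against 509.6, 191 and 173 in keratinocytes, a log2 fold change of -9.02 ± 2.19 (SE), edgeR adjusted p = 0.0289 (lost without cLC library 1 or 2 or keratinocyte library 1, 2 or 3). The grainyhead-like factor grhl3, which drives barrier genes in mouse epidermis, had 0 CPM in all 4 cLC libraries, against 165, 47.2 and 64.9 in keratinocytes (edgeR adjusted p = 0.0733) and was not called. Of 12 tested genes of the matriptase protease system, 2 were called lower and 0 higher. These were spint2, a Kunitz inhibitor, with 10.9, 24.9, 0 and 0 CPM in cLCs, against 1438, 1877 and 1361 in keratinocytes, a log2 fold change of -7.45 ± 1.89 (SE), edgeR adjusted p = 0.0353, and f2rl1.2, of the protease-activated receptors, with 0, 0.542, 0 and 0 CPM in cLCs, against 228, 115 and 490 in keratinocytes, a log2 fold change of -10.96 ± 2.67 (SE), edgeR adjusted p = 0.0292. The first was lost without cLC library 1 or 2 or keratinocyte library 2 or 3 and the second without cLC library 1 or 3 or keratinocyte library 1, 2 or 3. Of 21 annexins and S100 genes, 5 were lower and 0 higher. anxa1b had 0, 0.108, 0 and 0 CPM in cLCs, against 1396, 1077 and 689 in keratinocytes (edgeR adjusted p = 0.00304), and anxa1c had 0.388, 0, 0 and 0 CPM in cLCs, against 301, 632 and 390.3 in keratinocytes (edgeR adjusted p = 0.0157; lost without cLC library 2 or keratinocyte library 2). The annexin genes were read at no more than 0.388 CPM in any cLC library among the 4 that were called.

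Some of the most extreme keratinocyte genes were enzymes and transporters. sult2st3, a sulfotransferase, had 0 CPM in all 4 cLC libraries, against 9.8, 28548 and 1276 in keratinocytes, at least 181450-fold lower (edgeR adjusted p = 0.00737), though keratinocyte library 1 held far less than the other 2. Keratinocyte library 2 carried most of that level, and without it the bound was 11726-fold. soul2, of a heme-binding family, had 0 CPM in all 4 cLC libraries, against 1856, 3443 and 1887 in keratinocytes, at least 43709-fold lower (edgeR adjusted p = 0.00374). stx11b.1, a syntaxin of vesicle fusion, had 0 CPM in all 4 cLC libraries, against 619, 635 and 702 in keratinocytes, at least 11898-fold lower (edgeR adjusted p = 0.0101). The 3 keratinocyte libraries lay closest together for stx11b.1 of these genes, with an SD of 44.0 CPM. rhcgl1, of the ammonia-transporting Rh family, had 0 CPM in all 4 cLC libraries, against 704, 577 and 191 in keratinocytes, at least 8955-fold lower (edgeR adjusted p = 0.0086), and the G protein subunit gna14 had 0 CPM in all 4 cLC libraries, against 608, 1277 and 144 in keratinocytes, at least 12342-fold lower (edgeR adjusted p = 0.00921). hrc, a histidine-rich calcium-binding protein, had 0 CPM in all 4 cLC libraries, against 471, 382 and 496 in keratinocytes, at least 8204-fold lower (edgeR adjusted p = 0.00705). The mucin gene mucms1 had 0 CPM in all 4 cLC libraries, against 152, 819 and 674 in keratinocytes, at least 9998-fold lower (edgeR adjusted p = 0.00742). cyp8b2, of the cytochrome P450 family, had 0 CPM in all 4 cLC libraries, against 130.4, 974 and 404 in keratinocytes, at least 9176-fold lower (edgeR adjusted p = 0.0121), and lost its call without keratinocyte library 2. The groups did not overlap for any of these genes, which was a condition for naming them.

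Among the most extreme genes called higher in cLCs outside the lists, acp5a, the tartrate-resistant acid phosphatase of macrophages and osteoclasts, had 583, 149.6, 569 and 535 CPM in cLCs, against 0 in all 3 keratinocyte libraries, at least 5689-fold higher (edgeR adjusted p = 0.0014). odc1, the first enzyme of polyamine synthesis, had 216, 948, 269 and 192 CPM in cLCs, against 0 in all 3 keratinocyte libraries, at least 5029.5-fold higher (edgeR adjusted p = 7.65e-05). anpepla, of the aminopeptidase N family, had 541, 866, 269 and 96 CPM in cLCs, against 0 in all 3 keratinocyte libraries, at least 5486-fold higher (edgeR adjusted p = 0.00975). These 3 calls held without any one library, and all 4 cLC libraries read each gene, which the rule for naming them required. odc1 averaged 2194 CPM in neutrophils, 624 in T cells and 89.7 in MLCs, against 406 in cLCs. anpepla averaged 2146.5 CPM in neutrophils, 13.55 in T cells and 8.79 in MLCs, against 443 in cLCs. acp5a averaged 75.2 CPM in neutrophils, 0.255 in T cells and 289 in MLCs, against 459 in cLCs. These means are given without a test. fabp7b, a fatty acid binding protein, had 373, 2128, 43.3 and 690.4 CPM in cLCs, against 0 in all 3 keratinocyte libraries, at least 10012-fold higher (edgeR adjusted p = 0.0239), and lost its call without cLC library 2 or keratinocyte library 1, 2 or 3. NPC2, of a lysosomal cholesterol-binding family, had 534, 1907, 90.3 and 103 CPM in cLCs, against 0 in all 3 keratinocyte libraries, at least 8155-fold higher (edgeR adjusted p = 0.045), a call lost without any one of the 7 libraries.

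The NADPH oxidases divided by subunit. rac2 and ncf1, parts of the phagocyte enzyme, were called higher, and nox1 and noxo1a, a catalytic subunit and its organiser known from epithelia in mammals, were called lower, of 8 tested. The rac2 call is also counted in the myeloid and leukocyte actin lists. ncf1 had 362, 244, 465 and 0 CPM in cLCs, against 0.103, 0 and 0 in keratinocytes (edgeR adjusted p = 0.0244; lost without keratinocyte library 1, 2 or 3). nox1 had 0 CPM in all 4 cLC libraries, against 128, 467 and 208 in keratinocytes, at least 4889.9-fold lower (edgeR adjusted p = 0.0197; lost without cLC library 1 or 2 or keratinocyte library 2). noxo1a had 0 CPM in all 4 cLC libraries, against 240.2, 855 and 237 in keratinocytes, at least 8100.2-fold lower (edgeR adjusted p = 0.00952). The groups did not overlap for nox1 and noxo1a, and ncf1 was at 0 in cLC library 4. cyba, the membrane subunit that both kinds of enzyme use, had 317, 434, 230.1 and 542 CPM in cLCs against 199, 438 and 485 in keratinocytes (edgeR adjusted p = 1). cybb, the phagocyte catalytic subunit, had 160.3, 375, 768 and 65.1 CPM in cLCs against 0.103, 0 and 15.8 in keratinocytes (edgeR adjusted p = 0.14) and was not called.

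Other gene groups gave few calls or none by edgeR, which called 2.02% of all tested genes higher and 1.35% lower. In lists of about 30 genes such counts lie near that share and are no result about these groups. An unadjusted p under 0.05 marked 13.0% of all tested genes higher and 8.76% lower, and DESeq2 called 11.0% and 7.08%. Of 31 nuclear genes of oxidative phosphorylation 0 were called by edgeR and 0 had an unadjusted p under 0.05, while DESeq2 called 1 higher and 0 lower. Their median log2 fold change was 0.08 (0.08 with bounds). Of 30 cell cycle genes 0 were called by edgeR, 11 were higher and 0 lower at an unadjusted p under 0.05, and DESeq2 called 12 higher and 0 lower. Of these genes, limma on log2(TPM + 1) called 0 higher and 1 lower, and a fit with the replicate number as a block 1 and 0. Their median log2 fold change was 7.46 (4.89 with bounds), while their summed level was 470 to 2586 CPM in the cLC libraries and 971 to 1492 CPM in the keratinocyte libraries, so the sums overlapped between the groups. mki67, a proliferation marker chosen after its values were seen, had 26.6, 28.7, 0 and 0 CPM in cLCs, against 0 in all 3 keratinocyte libraries. Immediate early genes were read in both cells. Of 30 tested, nr4a2b was called higher and junbb lower. nr4a2b had 547, 119.9, 433 and 0 CPM in cLCs, against 0 in all 3 keratinocyte libraries (edgeR adjusted p = 0.0262; lost without cLC library 1 or keratinocyte library 1, 2 or 3). junbb had 1039.9, 1432, 491 and 770.1 CPM in cLCs, against 6478, 3995 and 7915 in keratinocytes, a log2 fold change of -2.72 ± 0.75 (SE), edgeR adjusted p = 0.0457, which was lost without any one of the 7 libraries. egr1 had 2895, 471, 2147 and 159 CPM in cLCs against 3418, 1155 and 2266 in keratinocytes (edgeR adjusted p = 0.893). Genes at high levels in every library included the mitochondrial mt-co1 and the actin actb2. mt-co1 had 19899, 46111, 12506 and 17061 CPM in cLCs against 10655, 26862 and 35521 in keratinocytes, and actb2 had 22345, 124400, 24124 and 13964 CPM in cLCs against 14083, 12214 and 9608 in keratinocytes. Neither was called (edgeR adjusted p = 1 and edgeR adjusted p = 0.0926).

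Ligands of the epidermis and receptors of Langerhans cells were also set side by side. Of 31 tested, 4 were called higher, the receptors cxcr4b, ccr9a and cxcr4a with nrros, and 1 lower, cdh1. The chemokine gene ccl20b, called lower as given above, lay outside this list. csf1ra was read in cLCs alone. Its ligand genes, chosen after their values were seen, were read in few libraries. il34 had 0 CPM in all 4 cLC libraries, against 0, 16.2 and 0 in keratinocytes, csf1a had 1.36, 0, 0 and 0 CPM in cLCs, against 0 in all 3 keratinocyte libraries, and csf1b had 0 CPM in all 4 cLC libraries, against 0, 7.19 and 5.3 in keratinocytes. tgfb1a, a transforming growth factor beta gene, had 6.4, 0.217, 0 and 0 CPM in cLCs, against 0 in all 3 keratinocyte libraries (edgeR adjusted p = 0.22).

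**Figure D5:**
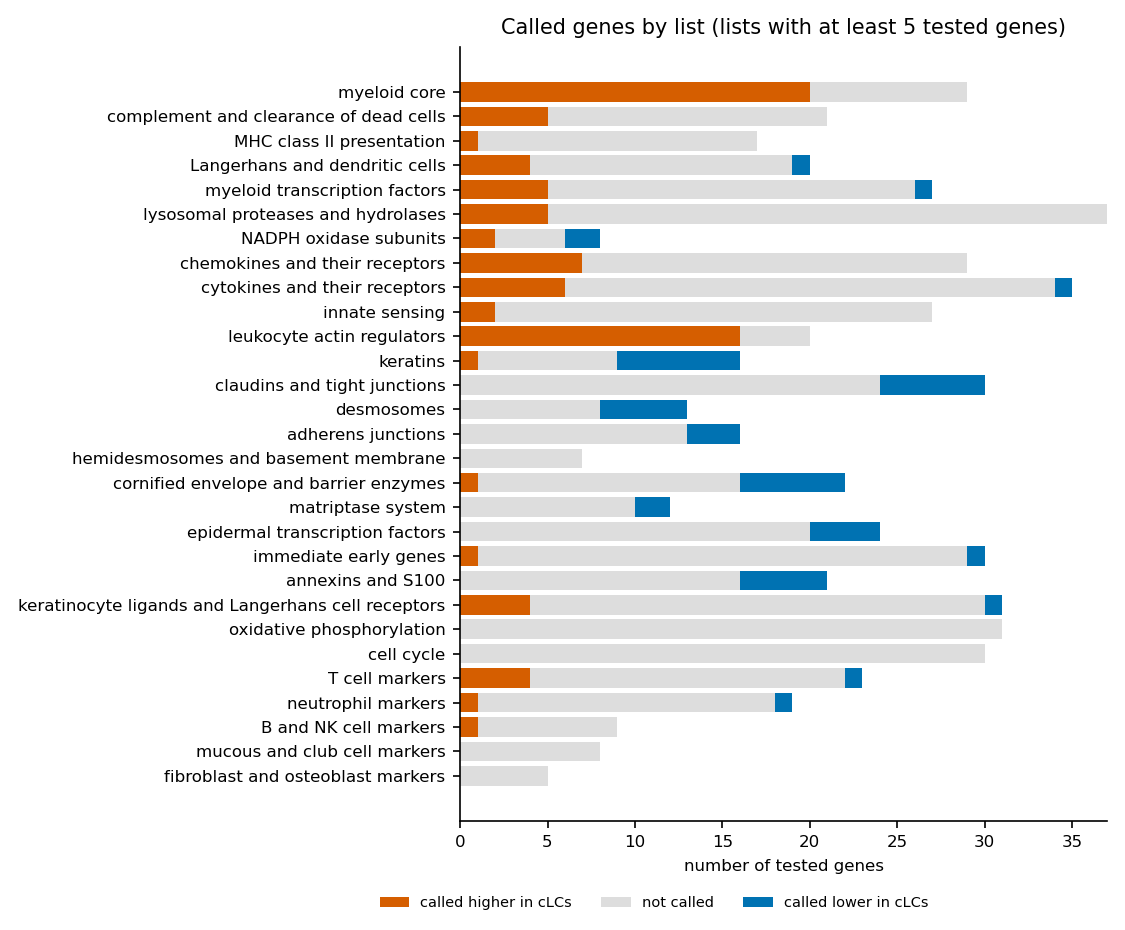
Number of tested genes in each gene list that were called higher in cLCs (orange), not called (grey) or called lower (blue), for the lists with at least 5 tested genes. The myeloid list (20 of 29) and the leukocyte actin list (16 of 20) hold the most higher calls among these lists, and the keratin list (7 of 16), the barrier list (6 of 22) and the tight junction list (6 of 30) the most lower calls. The myeloid list includes mpeg1.1 and the keratin list krt4, whose promoters marked the picked cells. Lists can share genes.

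With cLC libraries 3 and 4 and the 2 neutrophil libraries of under 6000 genes left out, the contrast rested on cLC libraries 1 and 2. In that fit 824 genes (4.13%) were called higher and 193 (0.968%) lower, of which 308 and 157 were calls of the fit of all libraries. There the myeloid list gave 24 higher and the leukocyte actin list 18, the class II list 5, the lysosomal list 11 and the complement list 11. On the keratinocyte side it gave 5 lower keratins, 7 tight junction genes, 5 desmosome genes and 4 epidermal transcription factors.

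Lists were also read at a looser threshold, an unadjusted p under 0.05, which marked 13.0% of all tested genes higher and 8.76% lower. DESeq2 called 11.0% of them higher and 7.08% lower. At an unadjusted p under 0.05 the myeloid, complement, class II, lysosomal, innate sensing and leukocyte actin lists held 25, 17, 7, 12, 10 and 18 higher genes and 0 lower. Tested genes numbered 29, 21, 17, 37, 27 and 20 in these lists. DESeq2 called 24, 12, 5, 10, 7 and 17 higher and 0 lower. The tight junction, desmosome, adherens junction and epidermal factor lists held 21, 10, 5 and 15 lower genes and 1, 0, 0 and 0 higher, of 30, 13, 16 and 24 tested. DESeq2 called 21, 8, 4 and 15 lower and 2, 0, 1 and 0 higher. The chemokine list held 17 higher and 2 lower of 29 tested, where DESeq2 called 13 and 1. The annexin and S100 list held 4 higher and 11 lower of 21 tested, where DESeq2 called 3 and 8. The matriptase list held 1 higher and 7 lower of 12 tested, where DESeq2 called 0 and 8. The barrier list held 2 higher and 14 lower of 22 tested, where DESeq2 called 2 and 13.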

How the data were processed

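RNA was measured by SMART-seq2 in 17 libraries of picked epidermal cells, of which 4 of cLCs and 3 of keratinocytes are compared here. The authors deposited a table of gene counts and a table of TPM per gene and library; the submitters' processing notes name STAR, featureCounts and the danRer10 build, with versions and settings not given in the sources used here. The 35572 lines held 455 repeated IDs with identical values, leaving 35117; 27289 had a symbol, 4536 of them from a gene name table.

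Deposited counts were tested with edgeR 4.0.16 (R 4.3.3; TMM, filterByExpr, quasi-likelihood, 1 mean per group over all 17 libraries, 12 residual degrees of freedom), with Benjamini-Hochberg adjustment over 15247 genes at 0.05. DESeq2 1.42.0 and limma 3.58.1 on log2(TPM + 1) were alternatives. CPM were computed here from the counts with TMM. Fold changes are cLCs over keratinocytes. The ± value is an approximate SE, the absolute log2 fold change divided by the square root of the quasi-likelihood F statistic. The 95% intervals were built from that SE and a t quantile. Each p-value sets a difference against the spread between libraries of a group, estimated over all 17 libraries.

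Genes named in the text came from the 15 called genes per direction of largest fitted change that averaged 50 CPM or more in whichever group was higher, whose libraries did not overlap and that have a proper symbol, called members of the gene lists, up to 4 uncalled members per list, the reporter and marker genes, and the 8 genes highest in every library; others are marked as chosen after their values were seen. Members and lists were chosen with earlier results of these data known. No sequence is shown, and DNA positions are not analysed here.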

Additional observations from a re-analysis of the deposited data

Results flagged for a closer look

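In 8 of 119 quantities examined, 1 of the 4 cLC libraries stood far from the other 3 on the log2(CPM + 1) scale by Dixon's ratio at its 95% critical value; chance gives about 1 in 20. Library 2 was the highest for c1qb, with 6877 CPM, and for rac2, with 964 CPM, and the lowest for acp5a, an acid phosphatase of macrophages, with 149.6 CPM. Library 4 was the lowest for tfeb with 3.53 CPM, for cxcr3.2, a chemokine receptor, with 0.282 CPM, and for ncf1 and the cytokine receptor gene crfb15 with 0 CPM each. Library 1 was the lowest for fybb, with 183 CPM. In 4 of the 8 cases the outlying value was the low one of library 4, which held the fewest genes, 4484; its part in these values was not tested. For the called genes among them, the direction of cLCs above keratinocytes was the same in every alternative run. Of these, c1qb, acp5a, crfb15 and fybb were at 0 in every keratinocyte library, so their direction could not change.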

How the results depend on the processing

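Genes called higher in cLCs numbered 308 and genes called lower 206. With DESeq2 they were 1676 and 1080, without a filter on low counts 563 and 384, with limma on log2(TPM + 1) 742 and 1318, and with limma on log2(TPM + 0.1) 702 and 1180. DESeq2 scaling in the same fit gave 357 and 333, and leaving out the libraries under 6000 genes 824 and 193. Leaving out each of the 7 libraries in turn gave 115 to 360 higher and 83 to 142 lower; each such fit has fewer libraries, and beyond that the cause of these moves was not tested. A minimum of 10 CPM in 3 libraries (394 and 280), the 7 libraries alone (244 and 301) and a fold above 2 (294 and 197) stayed within 1.5 times. These are totals, and the genes behind them differed. The 7 libraries alone tested 10094 genes and kept 196 of the 308 higher calls and 190 of the 206 lower. Higher calls were 44.8% of all calls there, against 59.9% in the main fit. The replicate numbers showed no pairing of cLC with keratinocyte libraries 1 to 3. The correlation of same-numbered deviations was -0.0054, 0.023 and 0.010, and none of the 9 pairs exceeded 0.1. Pairing with the other cell types in the fit was not tested. Genes read fell from library 1 to 4 in cLCs and also in MLCs, where they numbered 15684, 15113, 10115 and 8972. A fit with the replicate number as a block gave 503 higher and 299 lower, and the log2 fold change of cd74a passed under it (edgeR adjusted p = 0.00103). Of 125 called genes named or listed, none changed direction under the alternatives that gave them an adjusted p. DESeq2 gave one for 121 of them, the 7 libraries alone for 122 and the minimum of 10 CPM for 124. Many of these genes were at 0 in every library of cLCs or of keratinocytes. Their direction could not change, so its agreement is no support for them. Of the 125, 60 kept the call without any one library. Library depth was lowest in cLC library 1, with 6158350 counts, which read 16200 genes. The fewest genes, 5662 and 4484, were read in cLC libraries 3 and 4, although these held 15748369 and 14248945 counts. A value of 0 there is a gene not detected in that library, and why fewer genes were read was not tested.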
